A study of Mus musculus with 6 samples.

Results

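A group of 9 natural killer (NK) cell genes and the NKG2D ligand gene *H60c* were examined in mouse lung after hemorrhagic shock (HS). The genes are *Ncr1*, *Klrk1*, *Klrd1*, *Klre1*, *Eomes*, *Gzma*, *Gzmb*, *Prf1*, *Nkg7* and *H60c*. They were taken by gene symbol from the deposited read counts and make up 10 of 54532 genes. The 10 were chosen by their measured read counts in these same libraries, which had been seen to be higher in GRdim/dim lungs. Their difference between genotypes is therefore a description, and no test of it is given as support.

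The study asked how a glucocorticoid receptor (GR) that dimerizes poorly affects the lung after HS. GRdim/dim mice carry a point mutation of GR that impairs dimerization of the receptor, in every cell of the body, and GR+/+ littermates carry the intact receptor. All mice were 129/SvEv x C57BL/6, aged 10 to 16 weeks, and were kept under anesthesia and ventilation, 1 mouse per day. Each lost blood until arterial pressure averaged 35 mmHg, stayed there for 1 h and was then resuscitated for 4 h with its own blood, fluids and norepinephrine, after which the lung was taken. Animals without HS were not analysed here, so the levels below belong to shocked lungs of both genotypes. By the study's methods the GR+/+ group held 2 females and 1 male and the GRdim/dim group 1 female and 2 males, so sex and genotype are partly confounded. Each of the 6 poly(A)-captured libraries came from a separate mouse, 3 per genotype. Reads counted on genes summed to 16361747 to 32082940 in GR+/+ and 15687734 to 24444604 in GRdim/dim. Lung epithelial and endothelial markers, led by *Scgb1a1*, *Sftpc* and *Sftpb*, were abundant in every library.

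NK cells are innate lymphocytes that kill stressed or infected cells without prior sensitization. They weigh signals from activating and inhibitory receptors on their surface, and when activation prevails they release granules that hold perforin, which opens the target membrane, and granzymes, the proteases that enter through it. NKG2D, the product of *Klrk1*, is an activating receptor that signals through the adaptors DAP10 (*Hcst*) and DAP12 (*Tyrobp*) and recognizes MHC class I-like proteins of the H60, RAE-1 and MULT1 families on stressed cells. H60c is a ligand of this kind that is anchored in the membrane by lipid and is known mainly from skin. The lung holds many NK cells in its capillaries. Several of the genes here are shared with other lymphocytes: cytotoxic T cells also express granzymes, perforin, *Nkg7*, *Klrd1*, *Klrk1* and *Eomes*, whereas *Ncr1* is the most restricted to NK and related innate lymphoid cells.

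In GRdim/dim lungs *H60c* was the gene with the largest difference of the 10. Its level, in reads per 1000000 counted (CPM, on TMM-scaled totals), was 1.43, 1.38 and 2.57 in GR+/+ replicates 1, 2 and 3 and 10.2, 9.85 and 8.59 in GRdim/dim replicates 1, 2 and 3. The lowest GRdim/dim lung was well above the highest GR+/+ lung, and the gap between them was wider than the SD of either genotype. The mean was 1.80 ± 0.674 CPM in GR+/+ and 9.54 ± 0.843 CPM in GRdim/dim (SD, n = 3), a ratio of 5.31. Behind these levels stood 24, 23 and 81 reads in GR+/+ and 189, 237 and 133 reads in GRdim/dim. The log2 fold change of GRdim/dim against GR+/+ was 2.38 (SE 0.33). *H60c* was the only one of the 10 genes past the thresholds of edgeR's quasi-likelihood test, an adjusted *p* under 0.05 with an absolute log2 fold change above 0.5. Over all 16568 genes tested, 0.169% passed, 0.0724% as higher and 0.0966% as lower in GRdim/dim, and since the same contrast chose *H60c*, nothing is read from that comparison.

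The *H60c* gene (ENSMUSG00000091618) lies on the minus strand at chr10:3256208-3267771 of GRCm38, where GENCODE M21 lists 3 transcripts. Of the windows of 31 bases in its longest transcript, 8.47% occur in transcripts of another gene, so most of its reads can be told apart. The 4 tested genes within 1 Mb of it had log2 fold changes of -0.39 to 0.60 (median 0.00), 2 positive and 2 negative, and 0 were called. This look at the neighbourhood was chosen after the *H60c* values were seen. The 250 bases before the RefSeq start of *H60c* (GRCm38.p6, chr10:3267772-3268021, minus strand) are shown because they belong to the single gene called. The capitals mark the letters AGGAAG, the only form of a site for ETS factors that was searched for. Shorter forms such as GGAA alone were not marked.

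H60c: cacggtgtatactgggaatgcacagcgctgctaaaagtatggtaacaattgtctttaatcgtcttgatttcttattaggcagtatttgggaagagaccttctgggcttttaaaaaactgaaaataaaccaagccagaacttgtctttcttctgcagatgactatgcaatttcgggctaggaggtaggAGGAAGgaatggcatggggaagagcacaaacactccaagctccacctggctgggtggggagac

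No glucocorticoid response element with the letters GNACA and TGTNC set 3 bases apart was found in this window on either strand. That pattern occurs in 0.387% of the 32851 windows of RefSeq starts, so the window is like nearly all others in this respect. AGGAAG or its reverse complement occurs in 29.5% of windows.

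**Figure D1:**
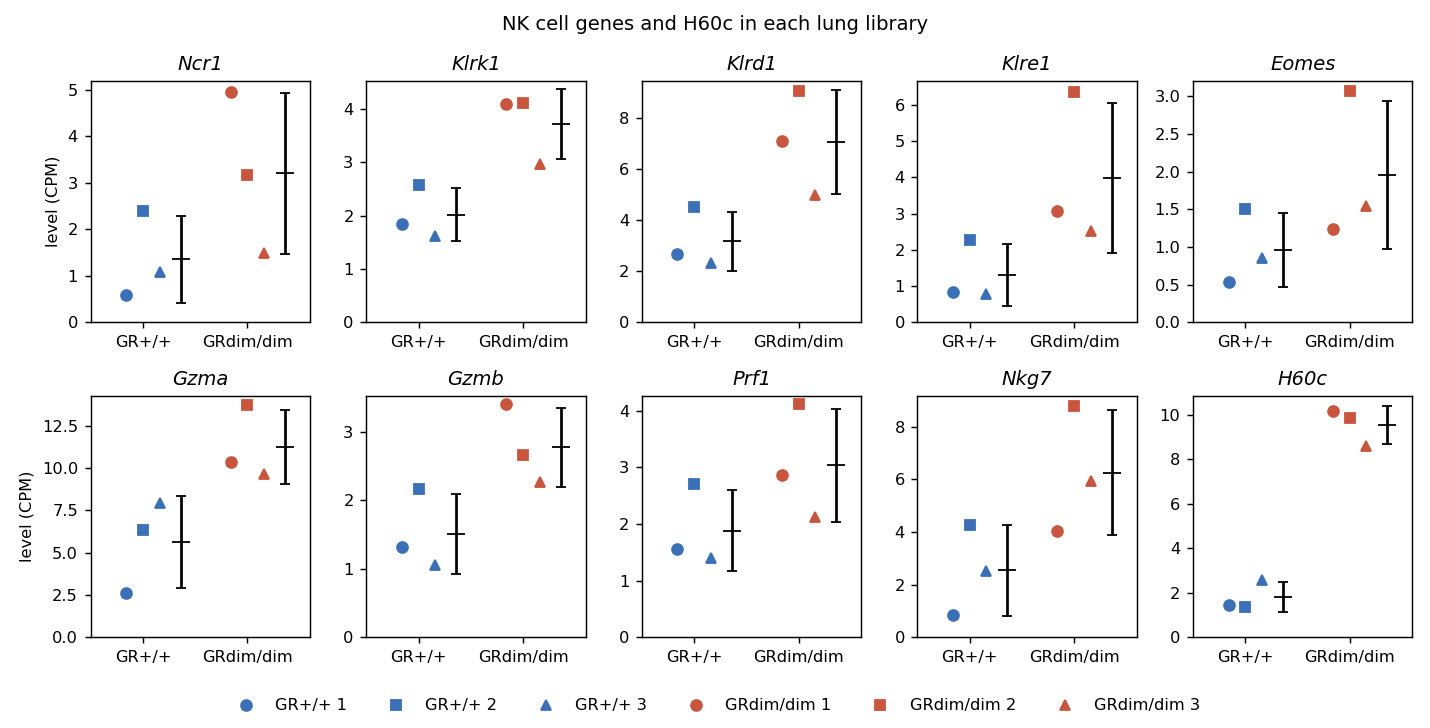
Level of the 9 NK cell genes and *H60c* in each lung library, in CPM (vertical axes differ between panels). Points are single mice, blue circles, squares and triangles for GR+/+ replicates 1, 2 and 3 and red for GRdim/dim; bars give mean ± SD (n = 3). *H60c* lies at 1.38 to 2.57 CPM in GR+/+ and 8.59 to 10.2 CPM in GRdim/dim, and in the 4 genes that overlap (*Ncr1*, *Prf1*, *Nkg7* and *Eomes*) GR+/+ replicate 2 is the library inside the GRdim/dim range.

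The 9 NK cell genes all had positive log2 fold changes (50.9% of all genes did), from 0.71 to 1.64, with a median of 1.03 against 0.01 over all genes tested. None of the 9 was called by edgeR or by DESeq2, although 6 had an unadjusted *p* under 0.05 in edgeR, where 4.91% of all genes did in this direction. In 5 of the 9 the lowest GRdim/dim library was above the highest GR+/+ library, which held for 7.77% of all genes. Because the genes were chosen for being higher in GRdim/dim, these counts describe them and are not evidence beyond the choice. In bulk tissue, more cells of a type and more RNA per cell cannot be told apart.

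Among the activating receptors, *Klrk1* (chr6:129610323-129623864, minus strand), which encodes NKG2D itself, was at 1.85, 2.58 and 1.62 CPM in GR+/+ and at 4.10, 4.11 and 2.97 CPM in GRdim/dim. The genotypes did not overlap, and the log2 fold change was 0.90 (SE 0.34). *Ncr1* (chr7:4337724-4345164, plus strand) encodes NKp46, the receptor used most widely to identify NK cells. Its level was 0.598, 2.40 and 1.08 CPM in GR+/+ and 4.96, 3.16 and 1.49 CPM in GRdim/dim. GRdim/dim replicate 3 fell below GR+/+ replicate 2, so the genotypes overlapped, and the log2 fold change of 1.25 had an SE of 0.57.

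The other receptors of the group are C-type lectins encoded beside *Klrk1* in the NK gene complex. *Klrd1* (chr6:129591782-129598775, plus strand) encodes CD94, which pairs with NKG2 chains to read the non-classical MHC class I molecule Qa-1. It was at 2.69, 4.50 and 2.32 CPM in GR+/+ and 7.12, 9.06 and 4.97 CPM in GRdim/dim. The 2 ranges came close, at GR+/+ replicate 2 and GRdim/dim replicate 3, but did not overlap, with a log2 fold change of 1.17 (SE 0.36). *Klre1* (chr6:129577905-129585827, plus strand) encodes KLRE1, a partner chain of the KLRI receptors, and had the largest difference of the 9. It was at 0.837, 2.28 and 0.794 CPM in GR+/+ and 3.07, 6.36 and 2.52 CPM in GRdim/dim, with a log2 fold change of 1.64 (SE 0.52). Again GR+/+ replicate 2 was just below the lowest GRdim/dim library. *Klre1*, *Klrd1* and *Klrk1* lie next to each other on chromosome 6.

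The granule genes are given next. *Gzma* (chr13:113093825-113100981, minus strand), encoding granzyme A, was at 2.63, 6.36 and 7.94 CPM in GR+/+ and 10.4, 13.7 and 9.62 CPM in GRdim/dim. Its genotypes did not overlap, and the log2 fold change was 0.98 (SE 0.37). *Gzmb* (chr14:56258838-56262260, minus strand), encoding granzyme B, was at 1.32, 2.16 and 1.05 CPM in GR+/+ and 3.40, 2.66 and 2.26 CPM in GRdim/dim. The gap between the highest GR+/+ and the lowest GRdim/dim library was narrow, and the log2 fold change was 0.89 (SE 0.40). *Prf1* (chr10:61297833-61304680, plus strand), encoding perforin, was at 1.55, 2.70 and 1.40 CPM in GR+/+ and 2.86, 4.11 and 2.13 CPM in GRdim/dim. It overlapped between genotypes and had the smallest log2 fold change of the 10, 0.71 (SE 0.41). *Nkg7* (chr7:43437073-43438249, plus strand) encodes a granule membrane protein needed for degranulation. It was at 0.837, 4.26 and 2.51 CPM in GR+/+ and 4.04, 8.77 and 5.94 CPM in GRdim/dim. GRdim/dim replicate 1 fell just below GR+/+ replicate 2, and the log2 fold change was 1.30 (SE 0.51).

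*Eomes* (chr9:118478212-118486132, plus strand) encodes a T-box transcription factor of mature NK cells. It was at 0.538, 1.499 and 0.858 CPM in GR+/+ and 1.24, 3.07 and 1.55 CPM in GRdim/dim. GRdim/dim replicate 1 was below GR+/+ replicate 2 and GRdim/dim replicate 3 close to it, and the log2 fold change of 1.03 had an SE of 0.52. With 9, 25 and 27 reads in GR+/+ and 23, 74 and 24 reads in GRdim/dim, *Eomes* rested on the fewest reads.

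The order of the libraries was compared over the 9 NK cell genes. GR+/+ replicate 2 was the highest of its genotype in 8 of the 9, and GRdim/dim replicate 2 the highest in 7. The lowest GR+/+ library was replicate 1 in 4 genes and replicate 3 in 5. Replicate 3 of GRdim/dim was the lowest of its genotype in 7. Summed over the 9 genes, the level was 12.9, 28.7 and 19.6 CPM in GR+/+ and 41.1, 55.0 and 33.5 CPM in GRdim/dim. *H60c* had another order, with GR+/+ replicate 3 the highest of its genotype and GRdim/dim replicate 1 the highest of all.

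The log2 fold changes depended on single mice to a different extent. Without GR+/+ replicate 2 the log2 fold change of *Klre1* was 2.30, and without GRdim/dim replicate 2 it was 1.12. For *Ncr1* the extremes were 1.90 without GR+/+ replicate 2 and 0.80 without GRdim/dim replicate 1, and for *Eomes* they were 1.47 without GR+/+ replicate 2 and 0.54 without GRdim/dim replicate 2. *H60c* stayed at 2.23 to 2.76. All 9 NK cell genes kept a positive sign with any one library left out. The call of *H60c* by edgeR held without GR+/+ replicate 3 and was lost when any one of the other 5 libraries was left out. DESeq2 called it with each of the 6 libraries left out in turn. With a covariate for sex-linked expression edgeR called *H60c* as well, and the median log2 fold change of the 9 NK cell genes was 1.39.

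**Figure D2:**
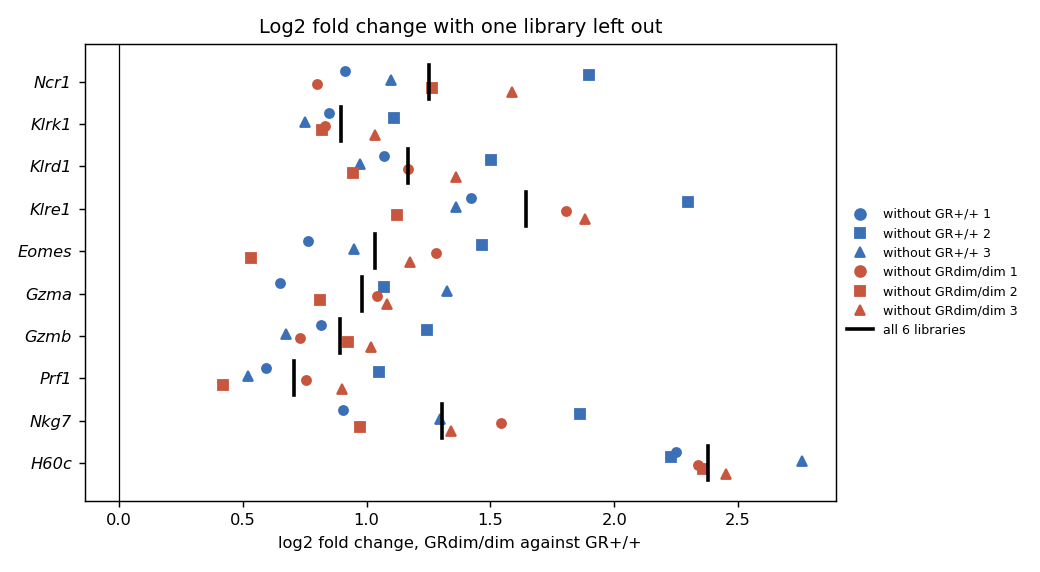
Log2 fold change of each gene (GRdim/dim against GR+/+) with one library left out at a time. Symbols name the library left out, and the black line marks the value from all 6 libraries. *H60c* moves between 2.23 and 2.76, while *Klre1* moves between 1.12 and 2.30.

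Levels can be compared between genes only per length of the gene model. Per kilobase, *Gzma* was the highest in both genotypes, at 5.61 ± 2.71 CPM per kb in GR+/+ and 11.2 ± 2.17 CPM per kb in GRdim/dim (SD, n = 3). *Nkg7* and *Klrd1* followed in both, at 2.77 and 2.47 CPM per kb in GR+/+ and 6.84 and 5.50 CPM per kb in GRdim/dim. *Klrk1* and *Eomes* were the lowest, at 0.281 and 0.232 CPM per kb in GR+/+ and 0.519 and 0.470 CPM per kb in GRdim/dim. The gene model of *Klrk1* has 7183 bases and its longest transcript 3259, while both lengths are 2817 for *H60c*. The low rank of *Klrk1* therefore depends on the length used. *H60c* was at rank 7 in GR+/+ with 0.637 CPM per kb and at rank 4 in GRdim/dim with 3.39 CPM per kb. Of the 9 pairs of neighbours in this order, 8 overlapped within their SD in each genotype. The separate pair was *Klrd1* and *Gzmb* in GR+/+ and *Klrd1* and *H60c* in GRdim/dim.

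NKG2D binds several ligands, and *H60c* was set beside the others. Of the 9 ligand genes listed, 5 were found in the counts and 3 had enough reads to test. The unmatched genes had no entry under the listed symbols, so they were not measured, and the shares given below leave them out. *Ulbp1*, which encodes MULT1, was at 4.30, 3.24 and 2.92 CPM in GR+/+ and 3.13, 4.07 and 2.71 CPM in GRdim/dim. Its genotypes overlapped, with a log2 fold change of -0.07 (SE 0.33, edgeR adjusted *p* = 0.976). *Raet1e*, a member of the RAE-1 family, was at 0.657, 0.600 and 1.33 CPM in GR+/+ and 0.917, 0.623 and 1.42 CPM in GRdim/dim, with a log2 fold change of 0.13 (SE 0.52, edgeR adjusted *p* = 0.969). Neither gene differed beyond its spread, and these *p*-values do not show that they were equal. *H60b* and *Raet1d*, named to account for all 5 ligands found, fall outside the naming rule. *H60b* had 0, 4 and 1 reads in GR+/+ and 6, 2 and 2 in GRdim/dim, too few to test. *Raet1d* had no read in the GR+/+ libraries and 11, 2 and 2 in GRdim/dim, but 67.7% of its sequence windows occur in another gene, mostly *Raet1e*, and the exons of the pair overlap by 363 bases, so reads of *Raet1d* and *Raet1e* may have been split between them.

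*H60c* made up a different share of the ligand reads in the 2 genotypes. It held 22.4%, 25.3% and 37.5% of the reads of the 5 matched ligands in GR+/+ and 67.3%, 67.0% and 66.2% in GRdim/dim. Corrected for gene length, the share was 35.03%, 33.9% and 45.9% in GR+/+ and 69.8%, 77.4% and 70.8% in GRdim/dim. Per length of the gene model, *H60c* was the largest of the 5 ligands in each GRdim/dim lung and in GR+/+ replicates 2 and 3. *Ulbp1* was the largest in GR+/+ replicate 1. In GR+/+ replicate 2 *H60c* and *Ulbp1* were close. The gene model of *Ulbp1* has 6726 bases and its longest transcript 5959, so their order in that library depends on the length used. Relative to its receptor, *H60c* stood at 0.774, 0.535 and 1.59 CPM for each CPM of *Klrk1* in GR+/+ and at 2.49, 2.39 and 2.89 in GRdim/dim, again without overlap. As *H60c* was chosen for being higher in GRdim/dim, these shares and ratios partly restate the choice and are a description.

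**Figure D3:**
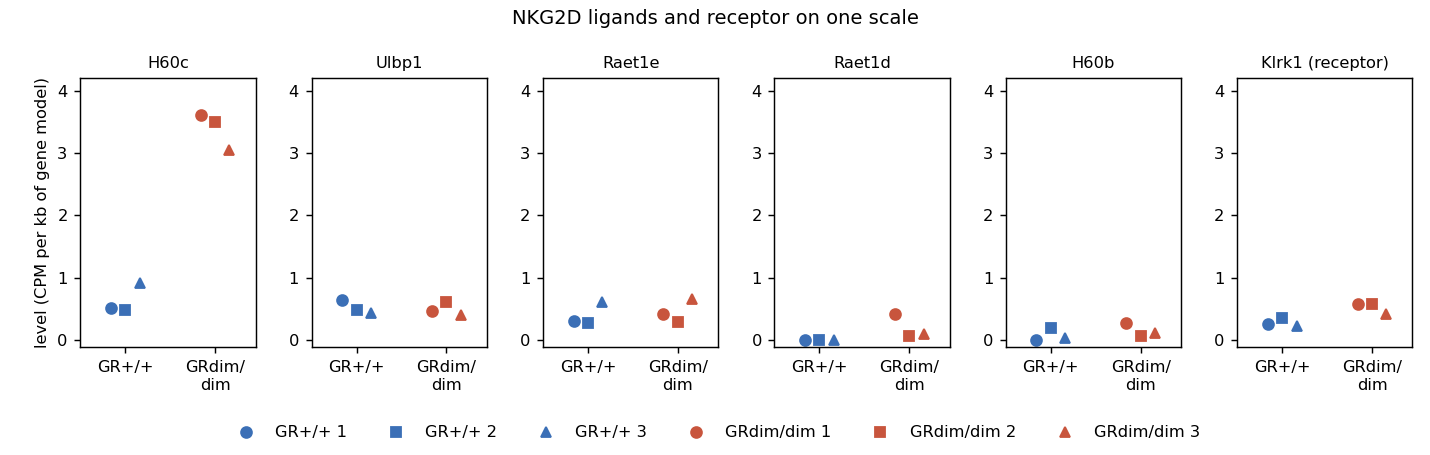
Level of the 5 NKG2D ligand genes found in the counts and of the receptor gene *Klrk1*, in CPM per kilobase of gene model on a shared axis. Each point is a mouse. *H60c* reaches 3.39 CPM per kb on average in GRdim/dim, while *Ulbp1* and *Raet1e* overlap between genotypes and *Raet1d* and *H60b* lie near 0. The gene model of *Klrk1* (7183 bases) is longer than its longest transcript (3259 bases), which lowers its values here.

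As *H60c* is known from skin, the markers of keratinocytes and airway basal cells are given beside it. Their sum was 6.00 to 14.3 CPM in GR+/+ and 4.99 to 11.8 CPM in GRdim/dim, overlapping between genotypes and with a lower mean in GRdim/dim. Of the 9 markers 4 passed the filter on low counts, and 4 were at 0 in at least one library. The part of such cells in the level of *H60c* was not tested.

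Markers of other leukocytes were higher in the same lungs as the NK cell genes. The 15 T cell markers, all tested, summed to 41.6 to 74.9 CPM in GR+/+ and 81.2 to 110.5 CPM in GRdim/dim. The 8 B cell markers summed to 30.2 to 67.9 CPM and 69.7 to 105 CPM, and the 5 pan-leukocyte markers, led by *Ptprc* (CD45), to 256 to 411 CPM and 476.5 to 602 CPM. None of the T and B cell markers was called by edgeR, 6 of the 15 and 5 of the 8 had an unadjusted *p* under 0.05 and were higher (background 4.91%), and DESeq2 called 1 of each as higher, *Trac* and *Cr2* (background 0.804%). In all 3 lists every GRdim/dim library was above every GR+/+ library, and no listed gene was at 0. With 3 lungs per genotype, complete separation has an exact two-sided permutation *p* of 0.1, the smallest possible, so no single sum could pass 0.05. The 8 neutrophil markers overlapped, at 274 to 520 CPM in GR+/+ and 360 to 1117 CPM in GRdim/dim, where replicate 1 was the highest. Alveolar macrophage markers overlapped as well, at 545 to 654 CPM and 505 to 597 CPM. A list for gamma delta T cells and other innate lymphoid cells went the other way, at 230.8 to 243 CPM in GR+/+ and 111 to 215 CPM in GRdim/dim. This sum is carried mostly by *Rora* and *Zbtb16*, which other lung cells also express. Of these *Zbtb16* was at 114 CPM in GR+/+ and 35.4 CPM in GRdim/dim on average (log2 fold change -1.68, called by DESeq2 and not by edgeR), and *Rora* had a log2 fold change of -0.08. Of the 8 genes of the list, 5 had positive and 3 negative log2 fold changes. DESeq2 also called *Retnlg*, a neutrophil marker, as higher and *Chil3*, an alveolar macrophage marker, as lower, where edgeR called neither. The marker genes singled out here as called by DESeq2 were named after their values were seen. The part of these cell types in the levels of the NK cell genes was not tested.

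Set against the other leukocytes, the NK cell genes did not stand apart between genotypes. The summed level of the 9 genes over *Ptprc* was 0.229 ± 0.0960 in GR+/+ and 0.265 ± 0.0582 in GRdim/dim (SD, n = 3), and the libraries overlapped. Over the T cell marker sum it was 0.383 ± 0.0734 and 0.453 ± 0.0848, and over the B cell marker sum 0.485 ± 0.106 and 0.518 ± 0.0760, again with overlap. *H60c* over *Ptprc* was 0.0222 ± 0.0159 in GR+/+ and 0.0594 ± 0.0120 in GRdim/dim. These libraries did not overlap, but the gap was narrow, from 0.0405 in GR+/+ replicate 3 to 0.0495 in GRdim/dim replicate 1. As *H60c* was chosen for being higher in GRdim/dim, this ratio partly restates the choice and is a description. The ratio of the 9 genes to *Ptprc* was lowest in GR+/+ replicate 1, at 0.122, and highest in GRdim/dim replicate 2, at 0.312, with GR+/+ replicate 3 close to it at 0.308.

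**Figure D4:**
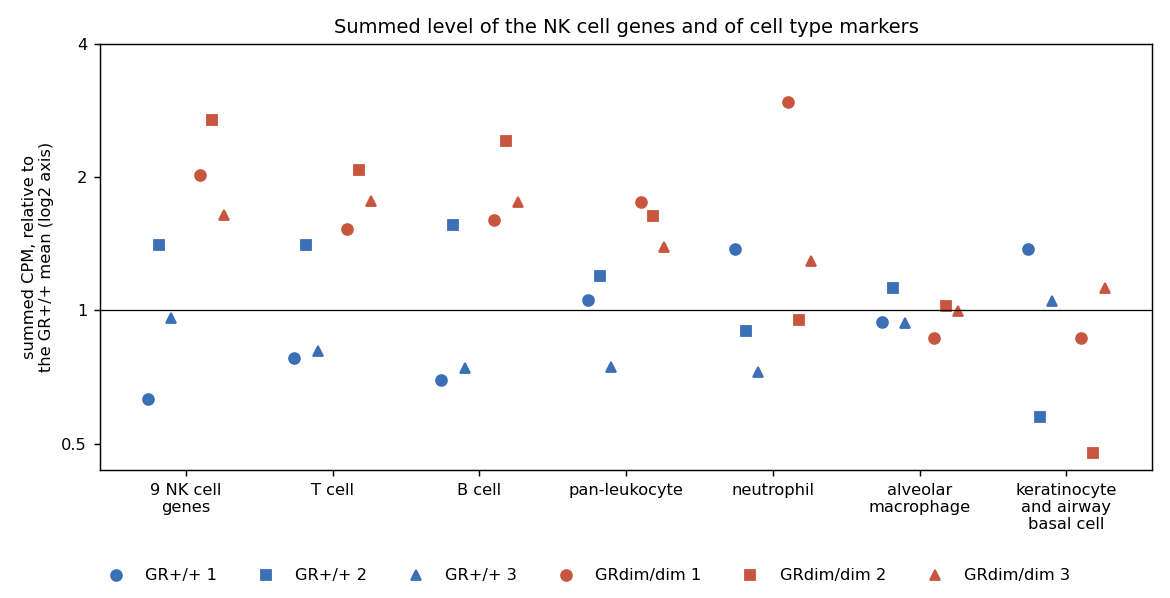
Summed CPM of the 9 NK cell genes and of marker lists in each library, divided by the GR+/+ mean of that list, on a log2 axis. Each point is a mouse. NK, T cell, B cell and pan-leukocyte sums lie higher in every GRdim/dim lung than in any GR+/+ lung, with GR+/+ replicate 2 the highest of its genotype in all 4, while neutrophil, alveolar macrophage and keratinocyte and basal cell sums overlap.

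The rest of the NK cell pathway was followed in 8 lists of receptors, adaptors, effectors, transcription factors, cytokine signals, homing genes and ligands. Apart from the 10 genes above, 124 of 129 listed genes were matched and 104 tested. None was called by edgeR, 24 were higher and 3 lower in GRdim/dim at an unadjusted *p* under 0.05 (background 4.91% and 4.68%), and DESeq2 called 5, against 0.804% of all genes higher and 0.905% lower. The median log2 fold change of the 104 was 0.40, with 86 positive and 18 negative. In 25 the GRdim/dim libraries were all higher and in 6 all lower, where 7.77% and 7.05% of all genes were.

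The 5 genes called by DESeq2 are named after their values were seen. *Srgn*, encoding the granule proteoglycan serglycin, was at 91.1 ± 3.96 CPM in GR+/+ and 164.7 ± 40.8 CPM in GRdim/dim, with a log2 fold change of 0.86 (SE 0.20, edgeR adjusted *p* = 0.181). *Il2rb*, the receptor chain that IL-2 and IL-15 share, was at 9.24 ± 2.31 and 19.8 ± 5.08 CPM, with a log2 fold change of 1.10 (SE 0.27, edgeR adjusted *p* = 0.216). *Il21r*, the IL-21 receptor, was at 5.84 ± 1.70 and 13.4 ± 0.564 CPM, with a log2 fold change of 1.20 (SE 0.27, edgeR adjusted *p* = 0.171). These 3 are expressed by many lymphocytes, and *Srgn* by most leukocytes. The other two were lower in GRdim/dim. *Gata3*, a transcription factor of T cells and innate lymphoid cells that lung structural cells also express, was at 18.9 ± 5.04 and 8.39 ± 0.297 CPM, with a log2 fold change of -1.17 (SE 0.25, edgeR adjusted *p* = 0.145). *Clec2d*, a ligand of the inhibitory receptor NKR-P1B on NK cells, was at 157.6 ± 74.5 and 69.6 ± 11.1 CPM, with a log2 fold change of -1.18 (SE 0.29, edgeR adjusted *p* = 0.211).

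The receptor list holds the 4 receptors above, which were chosen for being higher in GRdim/dim and all lay above its median. The count and median of this list therefore partly restate the choice. The plot of log2 fold changes by list leaves the 4 out. Of 26 receptors tested, the 4 above included, 24 had positive log2 fold changes, with a median of 0.78. Those with the most CPM, not corrected for length, *Fcgr3* (CD16), *Itga2* (CD49b) and *Itgam* (CD11b), had log2 fold changes of 0.43, 0.36 and 0.98, with edgeR adjusted *p* = 0.576, 0.774 and 0.342. All 3 are shared with other blood cells. The partner chains of CD94 were looked up after the values of *Klrd1* were seen. *Klrc1* (NKG2A) was at 0.355 ± 0.219 CPM in GR+/+ and 1.07 ± 0.372 CPM in GRdim/dim, and *Klrc2* (NKG2C) at 0.384 ± 0.349 and 1.48 ± 0.731 CPM. Neither was called, and 54.5% of the *Klrc1* sequence windows are shared with other genes, mostly *Klrc2*, so the split of reads between the pair is uncertain.

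Of 15 adaptors and signalling genes next to the receptor that were tested, 13 had positive log2 fold changes, with a median of 0.36. *Pik3r1*, *Grb2* and *Pik3cd*, with the most CPM before correction for length, had log2 fold changes of -0.29, -0.08 and 0.43. The adaptors of NKG2D, named for their role outside the rule on CPM, were at 2.10 ± 0.268 and 3.22 ± 0.882 CPM for *Hcst* and at 34.3 ± 3.02 and 38.0 ± 4.81 CPM for *Tyrobp*, in GR+/+ and GRdim/dim. Their log2 fold changes of 0.61 and 0.15 had edgeR adjusted *p* = 0.644 and 0.871. *Tyrobp* is abundant in myeloid cells, so its level in whole lung says little of NK cells.

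Of the 19 granule and effector genes tested, the 4 above included, 17 had positive log2 fold changes, with a median of 0.54. Those 4 were chosen for being higher in GRdim/dim and all lay above this median, so it partly restates the choice. *Lamp1* and *Ctsc*, a lysosomal membrane protein and the protease that activates granzymes, are widely expressed and had log2 fold changes of 0.05 and -0.14, with edgeR adjusted *p* = 0.968 and 0.890. Among the transcription factors 10 of 14 were positive, including *Eomes*, which was chosen in the same way. *Ets1*, *Zeb2* and *Klf2*, with the most CPM before correction for length, had log2 fold changes of 0.03, -0.09 and 1.19, with edgeR adjusted *p* = 0.978, 0.951 and 0.471. *Klf2* varied widely in GRdim/dim, at 136 ± 83.9 CPM.

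Of the cytokine signalling genes 12 of 16 were positive. *Socs2*, *Jak3* and *Il18r1* had log2 fold changes of 0.39, 0.05 and 0.47 with edgeR adjusted *p* = 0.529, 0.978 and 0.632. *Il15*, the cytokine that maintains NK cells, was looked up for its role and was at 5.80 ± 1.54 CPM in GR+/+ and 5.53 ± 0.720 CPM in GRdim/dim. Its log2 fold change of -0.06 (SE 0.30) had an edgeR adjusted *p* = 0.976. Of the homing genes 11 of 12 were positive. *S1pr1*, *Cx3cl1* and *Cxcl12* had log2 fold changes of 0.44, 0.87 and -0.15, with edgeR adjusted *p* = 0.598, 0.303 and 0.942. *Cx3cl1*, the chemokine fractalkine bound by CX3CR1 on mature NK cells, was higher in every GRdim/dim library than in any GR+/+ library. Of the 12 homing genes, 2 were so separated, *Cx3cl1* included, beside 7.77% of all genes. Its receptor gene *Cx3cr1*, looked up for its role, overlapped between genotypes. The log2 fold change of *Cx3cr1* was 0.10 (SE 0.49, edgeR adjusted *p* = 0.976). Among the ligands of other NK receptors, *H2-D1*, *H2-K1* and *B2m*, the classical MHC class I chains and their light chain, had log2 fold changes of 0.11, 0.40 and 0.33, with edgeR adjusted *p* = 0.934, 0.602 and 0.757.

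**Figure D5:**
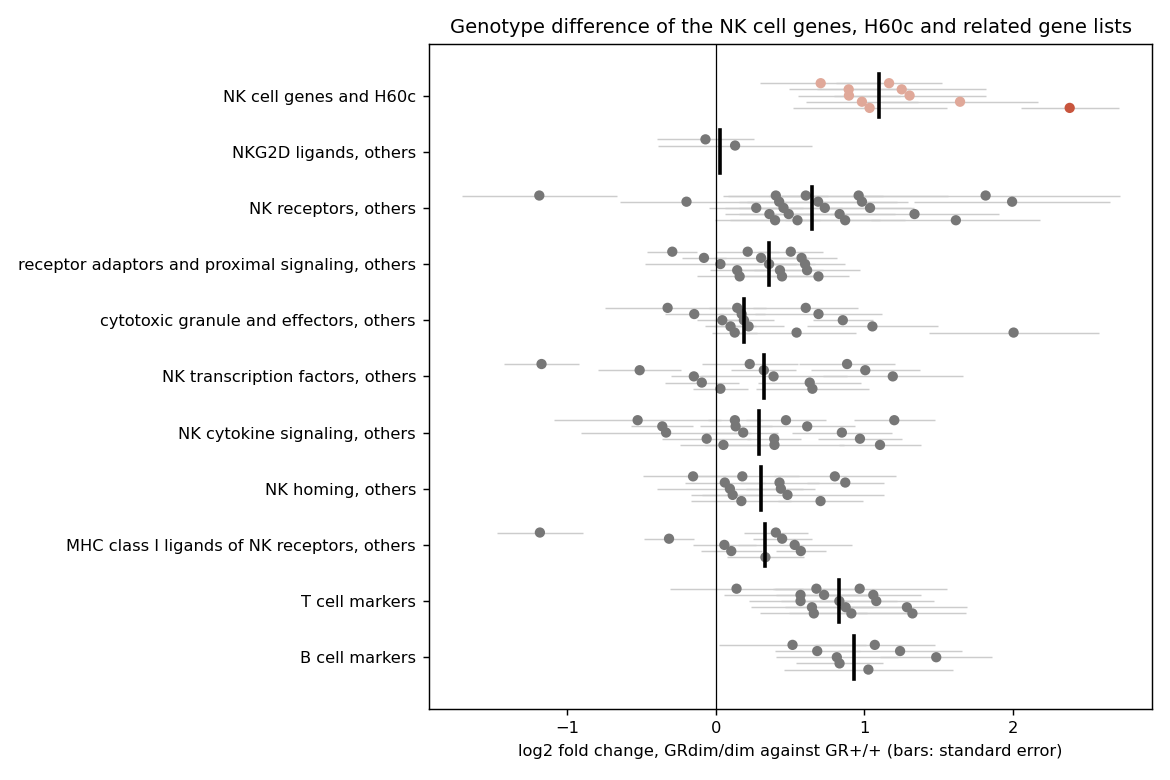
Log2 fold change (GRdim/dim against GR+/+) of each tested gene in the lists, with its standard error as a grey bar and the list median as a black line. The top row holds the 9 NK cell genes in pale red and *H60c*, the single gene called, in dark red; the rows below hold the lists without those genes. The medians of T and B cell markers, 0.83 and 0.93, come closest to the 1.10 of the top row.

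Genes whose level followed the same course over the 6 libraries were sought among 15325 genes with at least 1 CPM on average. Closest to the mean profile of the 9 NK cell genes were *Zfand6* and *Ms4a4b* (Pearson's *r* = 0.989 each), *H2-Ob* (0.987), *Tcrg-C1* (0.986) and *Cd300lg* (0.985). Closest to *H60c* were *Sgpp1* (0.996), *Spink5* (0.987), *Nt5c3* (0.986), *Uspl1* (0.983) and *Aif1l* (0.983). The 2 sets had no gene in common, and the profile of the 9 genes against *H60c* gave *r* = 0.766. These values describe 6 libraries that share the genotype difference, and no *p* is given.

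The sequences before the starts of the genes were compared for what they share. Of the 10 genes, 9 had a window of 250 bases before a RefSeq start, all but *Klrd1*. *Ncr1* and *Klre1* had 2 windows each, from 2 starts. The letters TGTGGT, or ACCACA on the other strand, the core bound by RUNX factors, occurred in 7 of the 8 NK cell genes with a window, and in 14% of all windows and 15.9% of all genes with one. *Eomes* and *H60c* did not hold these letters. The 5 motifs were chosen after the windows had been seen, so the count is a description. The stretch around the match, 12 bases to each side, is shown for 6 of the genes in the direction of the gene, with the match in capitals and coordinates in GRCm38.p6.

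Ncr1, chr7:4337662-4337691: caggcctcacccACCACAtcctgtgcatct
Klre1, chr6:129577972-129578001: ttgtgtttaagcTGTGGTtccagagagtca
Gzma, chr13:113101014-113101043: gagaagaacaaaACCACAtcctttgcactc
Gzmb, chr14:56262351-56262380: tgtgggttctgcTGTGGTtacttcatgatt
Prf1, chr10:61297694-61297723: tgggaacctgtgACCACActctgggggcag
Nkg7, chr7:43437043-43437072: gggcccacccctACCACAtaggaggagagg

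The match shown lay 41 bases before the start in *Ncr1*, 50 in *Gzma*, 34 in *Gzmb*, 83 in *Nkg7*, 130 in *Prf1* and 229 in *Klre1*. A second match, not shown, lay 176 bases before the start in *Ncr1* and 93 in *Gzmb*. For *Ncr1* and *Klre1* these distances are to the more upstream RefSeq start. The GENCODE model of *Klre1* starts farther upstream than the RefSeq starts used here, so its stretch lies within that model. For *Klrk1*, the NKG2D gene, the whole window (chr6:129623865-129624114, minus strand) is shown, with the match 129 bases before the start in capitals.

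Klrk1: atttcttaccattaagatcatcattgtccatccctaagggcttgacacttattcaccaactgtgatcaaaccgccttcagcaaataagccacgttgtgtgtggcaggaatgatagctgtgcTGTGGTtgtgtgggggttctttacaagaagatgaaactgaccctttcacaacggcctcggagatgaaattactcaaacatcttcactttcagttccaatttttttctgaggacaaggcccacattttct

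The other motifs were less shared. AGGAAG, the form of the ETS site searched for, occurred in *Prf1*, *Klre1* and *Nkg7* besides *H60c*, that is in 3 of 8 NK cell genes and 32.3% of all genes with a window. In *Klre1* it lay only before the more downstream RefSeq start, and the RUNX match only before the other. The T-box letters AGGTGTG and the GAS letters TTCNNNGAA were each found in *Nkg7* alone, with 5.1% and 7.02% of all windows holding them. The palindromic glucocorticoid response element occurred in no window of the 9 genes. A match gives the letters only, and whether a factor bound there was not measured in these lungs.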

How the data were processed

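The authors deposited whole-number read counts per gene, without normalization or pooling, for 6 poly(A)-captured lung libraries, each from 1 mouse. The submitters' notes name the build mm10 and DESeq2; aligner, counting tool and use of strand are not given in the sources used here. No row without a gene and no unmapped column was present (0 each). Of 54532 genes, 54409 were found in GENCODE M21 and 53462 had identical coordinates. Groups and replicate numbers came from the sample titles. Totals were 15687734 to 32082940 per library. Counting error and the spread between mice were not separated, and several of the 10 genes had few reads, down to 9 for *Eomes* in GR+/+ replicate 1.

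Counts were tested in R 4.3.3 with edgeR 4.0.16 (filterByExpr, TMM, robust glmQLFit, glmQLFTest), with *p*-values of 16568 genes adjusted by the Benjamini-Hochberg method; genes with adjusted *p* under 0.05 and log2 fold change beyond 0.5 were called. Levels are CPM on TMM-scaled totals, with a prior count of 2 for log2 values of the likeness search. DESeq2 1.42.0 was an alternative. Others were scaling by RLE, testing without a filter, a minimum of 10 reads in each library, no fold threshold, a covariate for sex-linked expression, the replicate number as a block, and each library left out. DESeq2 with a library left out was chosen after seeing the data. The procedure was tested on simulated counts.

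The genes and lists were chosen with earlier results of these data known. Named were the 9 NK cell genes, *H60c*, any called gene of the pathway lists, the 3 genes of highest CPM in each list, and the 5 genes most like the 9 NK cell genes and the 5 most like *H60c* in profile. Genes named outside this rule are marked where they appear. Sequences before starts are from RefSeq on GRCm38.p6. Shared sequence is the share of windows of 31 bases of the longest transcript found in another gene. Protein sequences were not used here.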

Additional observations from a re-analysis of the deposited data

How the results depend on the processing

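The median log2 fold change of the 9 NK cell genes, 1.03, was positive and within the spread between replicates under every alternative run, at 0.84 to 1.47; with at least 10 counts in every library it covers 8 genes, since *Eomes* was not tested there. *H60c* was the single one of the 10 genes called under RLE scaling, at least 10 counts in every library, the sex-linked covariate, no fold threshold and DESeq2. With no filter on low counts 3 of the 10 were called, *H60c*, *Klre1* (log2 fold change 1.64) and *Nkg7* (1.30). Over all genes 522 of 31368 were called there. With one library left out edgeR called 0 to 1 of the 10 and DESeq2 1 to 4. Without GR+/+ replicate 2 DESeq2 called 4 (*H60c*, *Klrd1*, *Klre1* and *Nkg7*), and over all genes 207 of 17048. Without GRdim/dim replicate 3 it called 2 (*H60c* and *Klrd1*), and over all genes 399 of 17120. Pathway genes outside the 10 numbered 0 calls in edgeR, 5 in DESeq2, 11 without the filter, 0 in edgeR with any library left out, and 1, 7, 2, 6, 3 and 5 in DESeq2 with the libraries left out in turn (GR+/+ replicates 1, 2 and 3, then GRdim/dim). Over all genes, edgeR called 28 of 16568, DESeq2 272 of 16568 and edgeR without the filter 522 of 31368. Leaving out one library gave 4 to 22 calls in edgeR among 16843 to 17148 genes, the fewest without GR+/+ replicate 2. Without GR+/+ replicates 1, 2 and 3, DESeq2 called 174 of 17148, 207 of 17048 and 203 of 16843. Without GRdim/dim replicates 1, 2 and 3 it called 270 of 16904, 244 of 16865 and 399 of 17120. The cause of these differences was not tested. No gene of the 10 changed sign. Same-numbered libraries of the genotypes deviated together with correlations of 0.218, 0.0361 and -0.0548, so the numbers were not taken as pairs; with the replicate number as a block 34 genes were called, 1 of the 10 and 0 pathway genes, and the median of the 9 was 1.09. Levels of the 9 genes rest on as few as 9 reads in a library, and 3 mice per genotype limit every comparison.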
